A study of Caenorhabditis remanei with 28 samples.

Results

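Larvae of a population selected for resistance to oxidative stress were compared with larvae of a control-selected population in Caenorhabditis remanei, an outcrossing roundworm whose populations hold males and females. The comparison took the 6 oxidative-selected libraries, numbered 1 to 6, and the 6 control-selected libraries with the same numbers, 12 of the 28 libraries of the series. Control libraries 7 and 8, for which the oxidative population has no counterpart, were kept out of the test and used as a check. Both populations were derived from the laboratory strain PX443, which also serves as the ancestor (libraries 3 to 8), and a heat-selected population from the same strain completes the series (libraries 1 to 8). Each library holds poly-A RNA from about 100000 pooled larvae at L1, the first larval stage. Eggs were freed by bleaching and left in buffer for 20 h without food, so that the larvae had hatched but not fed. The series design places every library at 20 °C, and no larva of the comparison is labelled as exposed to an oxidant. The protocol text also names 30 °C as an incubation temperature, and the oxidative titles carry no temperature. Each population is 1 evolved line, so selection and drift cannot be told apart, and nothing in the labels tells whether the libraries of 1 population were grown separately. The p-values therefore set the difference between these groups of libraries against the spread within the groups, and that spread may be technical.

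In Caenorhabditis elegans, a relative in which these pathways have been worked out, reactive oxygen is met by superoxide dismutases, catalases, peroxiredoxins and the glutathione system. Many of these genes are controlled there by the transcription factors SKN-1 and DAF-16. Larvae that hatch without food halt their development at L1, hold insulin-like signalling low and live on stored fat and sugar until food arrives. The comparison addresses whether resting expression, without the stress itself, differs after selection for resistance to it. In the present files genes are listed under FL81 identifiers, none of which (0 of 25337) was found in the RefSeq gene table of the species, so no gene below is tied to one of these pathways, and neither the L1 stage nor any tissue could be checked by marker genes.

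The 6 oxidative libraries held between 3103341 and 5754254 reads assigned to genes, and the 6 control libraries between 1809122 and 5214590. A level of 3 reads corresponds to between 0.521 and 1.66 CPM (reads of a gene per 1000000 gene reads) in these 12 libraries. These limits are before the scaling between libraries (TMM) that the CPM of single genes below include. The oxidative libraries left 35.1% ± 1.91 (SD, n = 6) of their reads unaligned and the control libraries 24.3% ± 7.00 (n = 6). The means differed by 10.8 percentage points (exact permutation test, two-sided, p = 0.00649, Benjamini-Hochberg adjusted p = 0.0162 over 5 measures). Control libraries 1 to 6 by themselves ranged from 16.7% to 33.5% in unaligned reads. The control libraries were uneven in this share, which was 16.7% to 20.1% in replicates 1 to 3 and 24.3% to 33.5% in replicates 4 to 6. Control replicate 5 alone lay within the oxidative range of 32.6% to 37.5%. Ambiguous reads, which overlap more than 1 gene, made up 2.06% ± 0.190 and 2.68% ± 0.221 (n = 6 and 6, exact permutation test, p = 0.00433, adjusted p = 0.0162). Reads aligned to more than 1 place made up 2.28% ± 0.134 and 2.63% ± 0.257 (n = 6 and 6, exact permutation test, p = 0.0195, adjusted p = 0.0325). Reads outside annotated genes made up 17.3% ± 1.92 and 19.3% ± 3.76 (n = 6 and 6, exact permutation test, p = 0.266, adjusted p = 0.290). All of these are shares of 1 total, so a larger unaligned share lowers the others. The part of the alignment step in the differences described here was not tested beyond the fit with the unaligned share as a covariate.

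**Figure D1:**
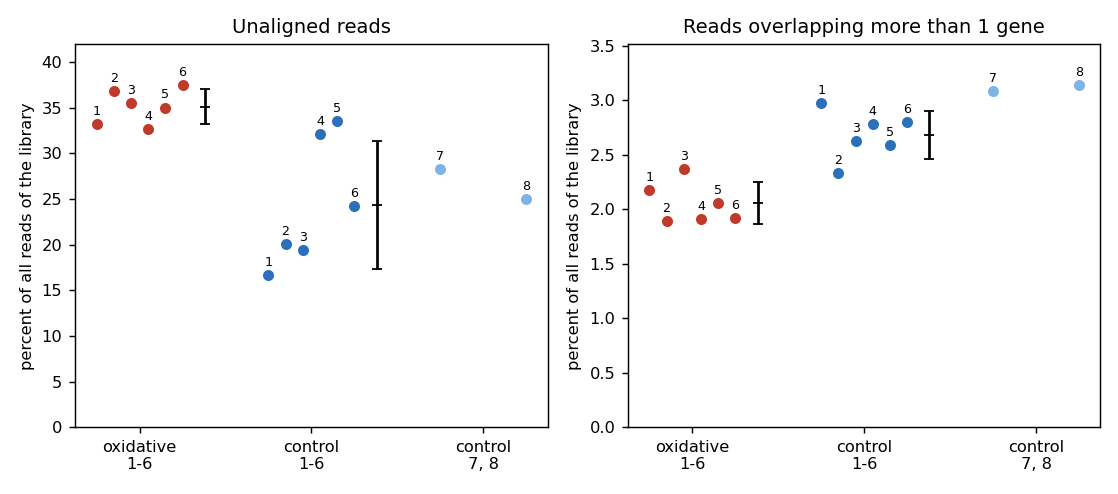
Share of unaligned reads (left) and of reads overlapping more than 1 gene (right), in percent of all reads, for each oxidative and control library, labelled by replicate number. Bars beside the points give mean ± SD over 6 libraries. In unaligned reads all 6 oxidative libraries lay above every control library except replicate 5 (33.5%), and in ambiguous reads oxidative replicate 3 (2.37%) was the one library that overlapped the control range, above control replicate 2 (2.33%).

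Oxidative larvae differed from control larvae in 2067 of 10940 tested genes, which is 18.9% (edgeR quasi-likelihood F test over all tested genes, Benjamini-Hochberg adjusted p under 0.05, 6 against 6 libraries). Of these, 1027 genes (9.39% of those tested) were higher in oxidative larvae and 1040 (9.51%) were lower. The median log2 fold change over all tested genes was -0.02, and 5221 of the 10940 had a fold change above 0. Most differences were modest: the median among the called genes was 1.52-fold upward and 1.68-fold downward, and both medians are set in part by the threshold itself. A difference of at least 2-fold was found for 172 genes that rose (1.57% of those tested) and 268 that fell (2.45%). A difference of at least 4-fold was found for 23 that rose and 22 that fell. In 575 genes all 6 oxidative libraries lay above all 6 control libraries (5.26% of those tested), and 549 of these were among the 1027 that rose. In 423 genes all 6 oxidative libraries lay below (3.87%), and 401 of these were among the 1040 that fell. The count of genes became 1329, with 488 higher and 841 lower, when the unaligned share entered as a covariate, and 907 of these were among the 2067. In that fit 226 genes were at least 2-fold higher and 377 at least 2-fold lower. The cause of the change in calls was not tested.

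The genes that differed were spread over the whole range of read abundance, but not evenly. With the tested genes ranked by mean log2 CPM and cut into 4 sets of 2735, 11.99% were called in the set with the fewest reads, with 114 higher and 214 lower. The share was 14.9% and 21.5% in the middle sets. It was 27.2% in the set with the most reads, with 435 higher and 309 lower. Fold changes ran the other way, with a median log2 fold change of 1.05 for called genes that rose and -1.06 for those that fell in the lowest set, and 0.52 and -0.57 in the highest. Genes with few reads must change more to pass the test, so these sets describe where the test could see a difference and not which transcripts responded. No gene lengths were used, and read abundance is not a transcript level.

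**Figure D2:**
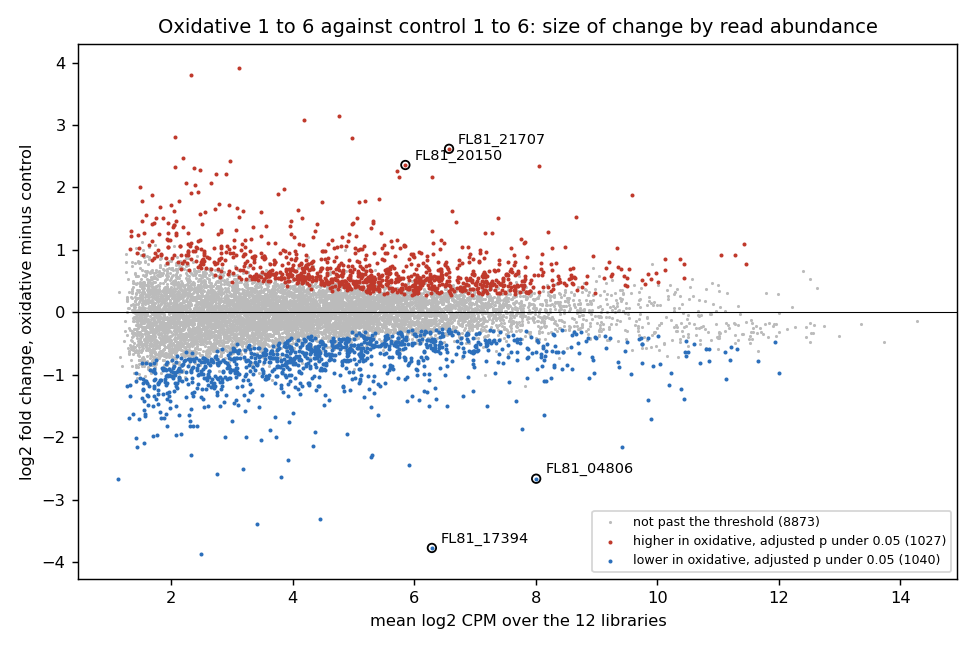
Log2 fold change of each of the 10940 tested genes (oxidative minus control, vertical) against its mean log2 CPM over the 12 libraries (horizontal). Red points are the 1027 genes that rose and blue points the 1040 that fell at an adjusted p under 0.05, grey points are the rest, and circles mark the 4 named genes.

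The change was also measured as reads rather than as numbers of genes, a measure that takes in the spread between libraries. Turning the mean control profile into the mean oxidative profile moved 11.0035% of gene reads from some genes to others. The 10 genes with the largest gain supplied 15.7% of all gain and the 10 with the largest loss 15.02% of all loss. The 100 largest supplied 42.7% of the gain and 56.5% of the loss. Only 5 of those 10 gaining and 5 of those 10 losing genes passed the test. The same measure between single libraries gave a median of 6.81% (range 3.68% to 14.6%) over the 15 pairs of oxidative libraries and 11.7% (5.35% to 19.3%) over the 15 pairs of control libraries. It gave 14.7% (9.47% to 21.2%) over the 36 pairs of 1 oxidative and 1 control library. The between-population distances thus overlapped those within the control population. Pairs share libraries, so these ranges are a description without a test.

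FL81_21707 was the gene with the largest rise among the 353 that rose without overlap between the 12 libraries and averaged at least 5 log2 CPM. Its product is not stated in the files. It stood at 147, 141, 167, 123, 166 and 150 CPM in oxidative libraries 1 to 6 and at 73.3, 8.58, 14.7, 32.5, 8.58 and 13.55 CPM in control libraries 1 to 6. The oxidative libraries were tightly grouped, whereas control replicate 1 stood well above the rest of its group, and the ranges did not overlap. The log2 fold change was 2.62 (SE 0.38, edgeR adjusted p = 0.000125), a 6.14-fold rise. It was 3.22 without control replicate 1 (edgeR adjusted p = 7.33e-07) and 3.25 with unaligned reads as a covariate (edgeR adjusted p = 0.000785). In control libraries 7 and 8 the level was 17.96 and 12.5 CPM, on the side of the other control libraries (log2 fold change of oxidative against these 2 libraries 3.25, edgeR adjusted p = 1.67e-08). The 6 ancestor libraries ranged from 18.02 to 72.3 CPM with a median of 31.3, all below the oxidative range. The 8 heat libraries ran from 22.01 to 1360 CPM, with heat replicate 3 far above all others. Heat replicates 1, 2, 7 and 8 lay below the oxidative range (22.01 to 107 CPM) and heat replicates 3 to 6 above it (218 to 1360 CPM). The heat median of 163 CPM falls in the gap between these sets and is the level of no heat library.

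FL81_20150 had the second largest rise by the same choice. It stood at 82.6, 87.6, 92.7, 70.7, 92.6 and 102 CPM in oxidative libraries 1 to 6 and at 8.23, 6.86, 19.1, 23.1, 18.9 and 22.7 CPM in control libraries 1 to 6. Every oxidative library lay at least 3 times above every control library, and control replicates 1 and 2 were lower than control replicates 3 to 6. The log2 fold change was 2.36 (SE 0.21, edgeR adjusted p = 7.43e-07), a 5.13-fold rise. With unaligned reads as a covariate the log2 fold change fell to 1.79 (edgeR adjusted p = 0.000342). The check libraries, control 7 and 8, were lower still, at 2.22 and 3.03 CPM, and against them the log2 fold change was 5.04 (edgeR adjusted p = 6.20e-10). All 6 ancestor libraries (2.68 to 7.15 CPM, median 5.35) and all 8 heat libraries (1.35 to 15.4 CPM, median 11.1) lay below the oxidative libraries. Of the 4 named genes, FL81_20150 was the one whose oxidative libraries stood above every library of every other population.

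FL81_17394 had the largest fall among the 171 genes that fell without overlap and averaged at least 5 log2 CPM. It stood at 9.32, 8.52, 14.8, 6.24, 8.44 and 11.5 CPM in oxidative libraries 1 to 6, from 24 to 80 reads each, and at 194, 98.7, 107, 133, 133 and 155 CPM in control libraries 1 to 6. No oxidative library came near a control library. The log2 fold change was -3.77 (SE 0.20, edgeR adjusted p = 1.10e-09), a 13.7-fold fall. In the check, control 7 and 8 differed from each other, at 98.05 and 29.2 CPM, and both were above all oxidative libraries (log2 fold change of oxidative against them -2.71, edgeR adjusted p = 8.85e-06). Ancestor libraries ranged from 36.2 to 118.7 CPM with a median of 54.9, and heat libraries from 53.1 to 389 CPM with a median of 238. The oxidative libraries were therefore below every other library of the series for this gene.

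FL81_04806 had the second largest fall and the most even levels within both groups. It stood at 72.1, 58.7, 54.9, 69.7, 68.4 and 65.4 CPM in oxidative libraries 1 to 6 and at 322, 431, 464, 420, 433 and 415 CPM in control libraries 1 to 6. The log2 fold change was -2.67 (SE 0.12, edgeR adjusted p = 1.16e-10), a 6.34-fold fall, and the adjusted p was the smallest of the 4 named genes. The high level was not shared by control libraries 7 and 8. They stood at 30.9 and 15.1 CPM, below all 6 oxidative libraries, so that the same oxidative libraries were higher than these controls (log2 fold change 1.46, SE 0.22, edgeR adjusted p = 0.000111). Ancestor libraries 7 and 8 were also lower (67.1 and 82.6 CPM) than ancestor libraries 3 to 6 (203 to 307 CPM). Heat library 7 was the lowest of its population at 36.1 CPM, but heat library 8, at 186 CPM, lay above heat libraries 3 to 6 (80.5 to 92.5 CPM), and heat libraries 1 and 2 stood at 270.1 and 216 CPM. Whether the difference between oxidative and control larvae in this gene is higher or lower thus depends on which control libraries are used.

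**Figure D3:**
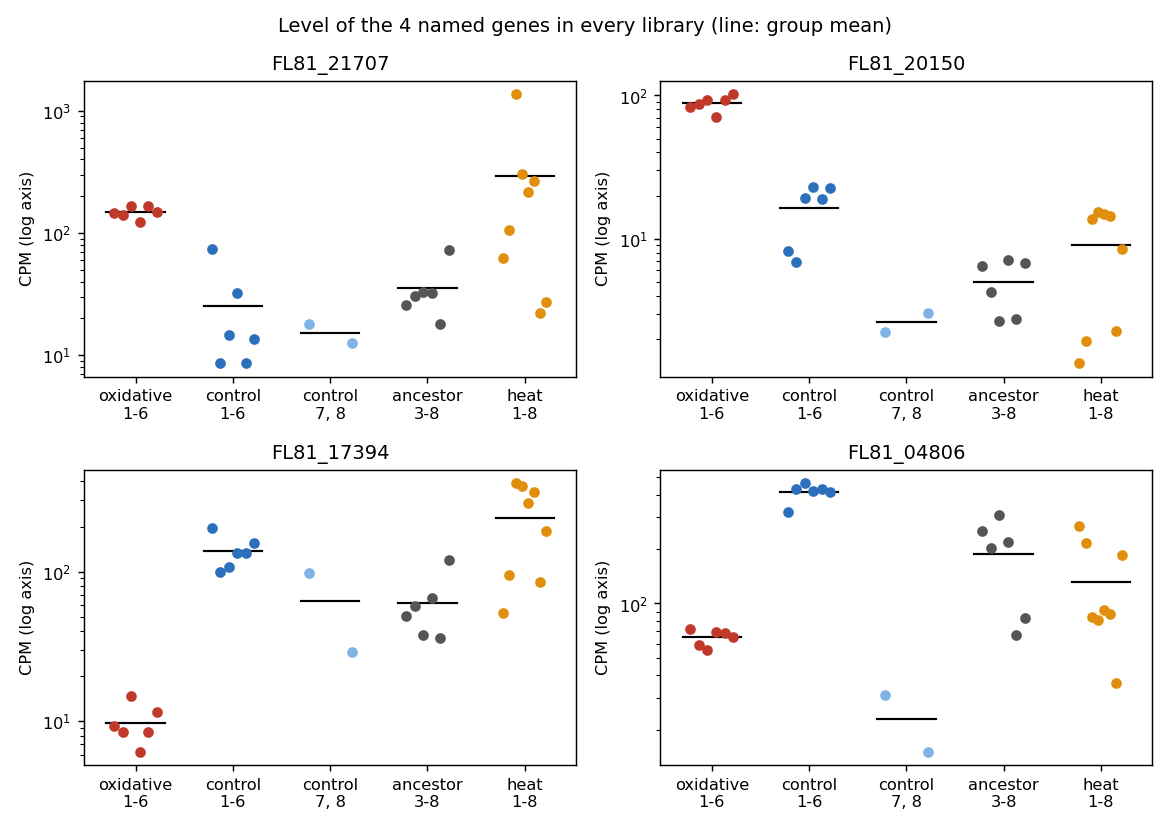
Level of each named gene in every library in CPM on a log axis, by population, with control replicates 7 and 8 apart. Points are single libraries in replicate order and lines are means. Oxidative libraries stand apart from all others for FL81_20150 and FL81_17394, and lie above control replicates 7 and 8 for FL81_04806. For FL81_21707 they lie in the gap between the lower and the higher heat libraries.

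Control libraries 7 and 8 had not been used to call the 2067 genes and were read as a check of the control side of each difference. Of the called genes, 1256 (60.8%) had both libraries on the control side of the midpoint between the population means of log2 CPM, and 420 (20.3%) had both on the oxidative side. Over all 10940 tested genes these shares were 46.8% and 29.04%, and over the 8873 genes not called 43.5% and 31.1%. Among the genes that rose, both libraries were on the control side in 680 of 1027 (66.2%), and in 134 of the 172 that rose at least 2-fold (77.9%). Among the genes that fell, the counts were 576 of 1040 (55.4%) and 153 of the 268 that fell at least 2-fold (57.1%). Both libraries lay past all 6 oxidative libraries, as in FL81_04806, for 21 genes that rose and 38 that fell, 2.85% of the called genes against 8.38% of all tested genes. The midpoint was set by the same libraries that chose the called genes, so these shares depend in part on that choice. The ancestor libraries, placed in a like way below, also lay nearer to the control level in their medians. For the genes that rose at least 2-fold, ancestor and heat libraries 7 and 8 stood near the control level (position 0, as defined below). They were at 0.0534 and -0.0492 in the ancestor and at -0.0421 and -0.0486 in heat. Ancestor libraries 3 to 6 were at 0.215 to 0.340 and heat libraries 1 to 6 at 0.191 to 0.401. A place on the control side is thus not particular to control libraries.

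**Figure D4:**
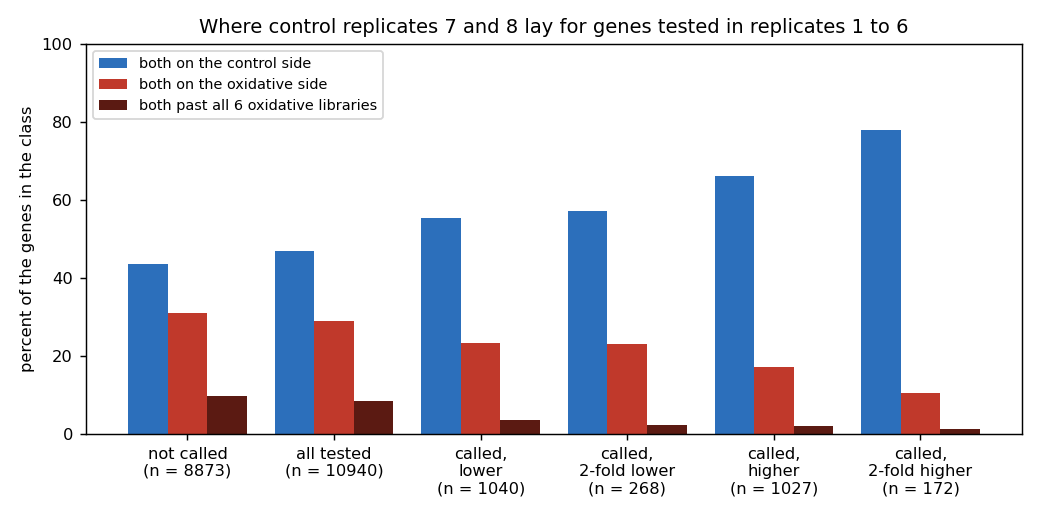
Percent of genes in each class (vertical) for which control replicates 7 and 8 both lay on the control side of the midpoint between the means of replicates 1 to 6, both on the oxidative side, or both past all 6 oxidative libraries. The last kind is part of the one before it. The midpoint was set by the same libraries that chose the called genes. The share on the control side was 46.8% over all tested genes and 77.9% for genes that rose at least 2-fold. For the latter genes, ancestor and heat libraries 7 and 8 also lay near the control level in their medians.

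In a fit of the 6 oxidative libraries against control libraries 7 and 8 alone, 4301 of 11794 tested genes differed (36.5%), with 1946 higher and 2355 lower (edgeR, adjusted p under 0.05). Of the 2067 genes, 1211 were called in the same direction in that fit, which is 58.6% of the former and 28.2% of the latter, and 42 were called in the opposite direction. Both fits hold the same oxidative libraries. Control libraries 7 and 8 also differed from control libraries 1 to 6 of their own population in 1854 of 11959 tested genes (15.5%), with 1115 higher and 739 lower (edgeR, adjusted p under 0.05, 2 against 6 libraries). The labels do not say what the numbers stand for. Libraries 7 and 8 were also the deepest controls, at 15447168 and 10857578 gene reads, and the part of depth was not tested.

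The libraries of both populations also varied along a shared direction. The leading axis of the deviations from the population means held 44.1% of the variance within populations. Control replicates 1 to 3 scored between -48.8 and -7.21 on it and control replicates 4 to 6 between 18.2 and 33.7. Oxidative replicates 1 and 4 scored -14.6 and -30.4, oxidative replicate 3 scored 34.5, and the rest lay between 0.517 and 6.85. The axis ran in part with depth and in part with the unaligned share. Control replicates 1 to 3 held 1809122 to 3270394 gene reads and control replicates 4 to 6 held 4865001 to 5214590. Oxidative replicate 4 was the shallowest of its population (3103341) and oxidative replicate 3 the deepest (5754254). Oxidative replicate 1, with a negative score, held 4919801. Unaligned reads were 16.7% to 20.1% in control replicates 1 to 3 and 24.3% to 33.5% in control replicates 4 to 6. Oxidative replicates 4 and 1 had the lowest unaligned shares of their population (32.6% and 33.2%). Oxidative replicate 3, with the highest score, had 35.5%, below oxidative replicates 2 and 6 (36.8% and 37.5%). The part of depth or of the unaligned share in the axis was not tested. Scores of each population centre on 0 by construction, so the axis says nothing of a difference between the populations. With this axis as a covariate 3907 genes differed, 1885 higher and 2022 lower, all 2067 among them. The axis was drawn from the same libraries, so that fit has less spread by construction. The median standard deviation of a gene was 0.27 log2 units among oxidative libraries and 0.33 among control libraries, and 0.31 and 0.36 after each library was thinned to 1809122 reads. The control libraries had the larger standard deviation in 66.9% of tested genes, and in 62.5% after thinning. Taken apart, control replicates 1 to 3 had a median of 0.29 and control replicates 4 to 6 of 0.19, or 0.29 and 0.24 after thinning. At the same spread, a median standard deviation over 3 libraries comes out lower than over 6. The values for sets of 3 therefore cannot be compared with the oxidative value.

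The ancestor and heat libraries, which did not enter the choice of the called genes, place these differences against the common origin of the populations. For each called gene a library was given a position, 0 at the mean of control libraries 1 to 6 and 1 at the mean of the oxidative libraries, both ends being fixed by the construction. Over the 1027 genes that rose, the median position of an ancestor library ranged from 0.125 to 0.366 with a middle value of 0.308. The low end was ancestor libraries 7 and 8 (0.125 and 0.153), and ancestor libraries 3 to 6 lay at 0.300 to 0.366. Over the 1040 that fell the position of an ancestor library ranged from -0.00402 to 0.384, with a middle value of 0.224. Ancestor library 8 was the lowest there, while ancestor library 7 (0.225) lay among libraries 3 to 6 (0.133 to 0.384). Every ancestor library thus lay nearer to the control than to the oxidative level in these medians. The heat libraries ranged from -0.0353 to 0.508 for the genes that rose, with heat replicate 6 past the midpoint, and from 0.0295 to 0.434 for those that fell. Heat libraries 7 and 8 were the lowest of their population in both sets. They stood at 0.170 and -0.0353 for the genes that rose and at 0.0750 and 0.0295 for those that fell. Control libraries 7 and 8 had positions of -0.139 and -0.0729 for the genes that rose, and of -0.0894 and 0.148 for those that fell. Since the genes were picked where the control and oxidative means lay far apart, any other population is placed between them in part by that choice, and its share was not tested.

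**Figure D5:**
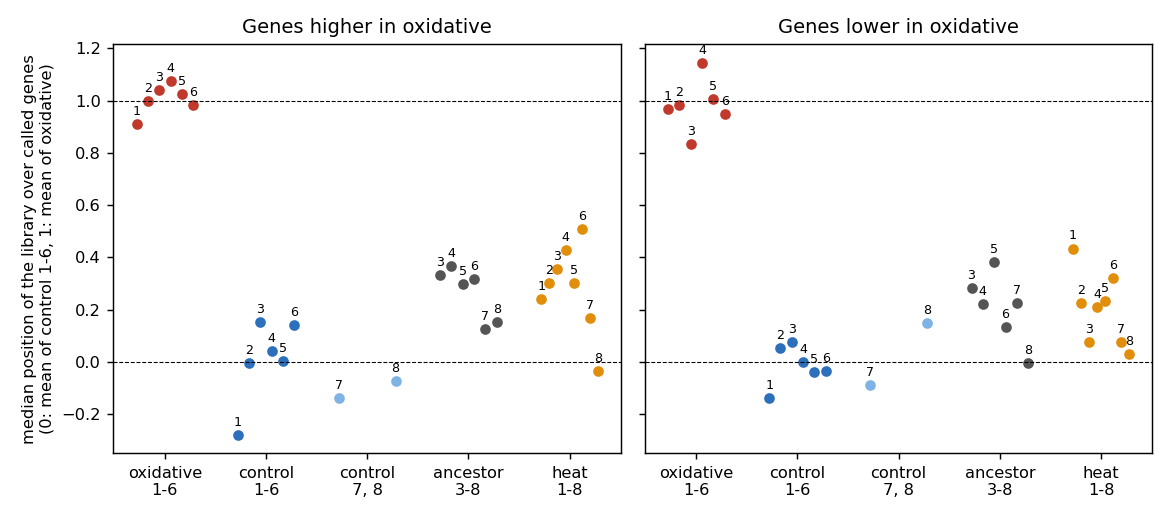
Median position of each library over the 1027 genes that rose (left) and the 1040 that fell (right), where 0 is the mean of control replicates 1 to 6 and 1 the mean of the oxidative libraries. Points are libraries labelled by replicate number. All ancestor libraries lie between -0.00402 and 0.384.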

How the data were processed

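Poly-A RNA of pooled L1 larvae was sequenced, and the authors deposited the raw counts of each library for 25337 gene identifiers. Per the submitters' processing notes, GSNAP (2013-03-31) was the aligner and HTSeq the counter; the genome build and annotation and whether strand was used are, in the sources used here, not given, so overlapping genes and near-identical copies are uncertain. The 5 summary lines entered no library size or test, and reads outside genes took 13.3% to 22.7% of all reads in the 12 libraries. Oxidative libraries 1 to 6 and control libraries 1 to 6 were compared in R 4.3.3 with edgeR 4.0.16 (filterByExpr with a minimum count of 10, TMM, quasi-likelihood F test, no block, Benjamini-Hochberg adjustment over 10940 genes). Standard errors are the log2 fold change over the root of its F. Printed CPM were scaled by TMM over all 28 libraries, and log2 CPM used a prior count of 2. Read shares were compared by exact permutation over all splits of 6 against 6 libraries. No 2 libraries of a population held like counts (chi-square per degree of freedom 2.09 or above over 43 pairs). The named genes are the 2 largest rises and 2 largest falls with an adjusted p under 0.05, groups that do not overlap in the 12 libraries and a mean of 5 log2 CPM or more. The comparison, the rule for named genes and the alternatives were chosen with earlier results of these data known. The planned lists of stress, metabolism and tissue marker genes had no measured member and were not used, because no identifier carries a gene name. Alternatives were DESeq2 1.42.0, limma 3.58.1 (voom with sample weights), other scalings, filters, covariates and sets of libraries.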

Additional observations from a re-analysis of the deposited data

Results flagged for a closer look

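For the read shares, depths and named genes, 26 groups of 6 to 8 libraries were searched for a library far from its group, and 5 were found. Chance alone gives about 1 in 20 where values follow a normal distribution, which was not tested for the CPM used here. FL81_21707 stood at 73.3 CPM in control replicate 1, where the next control library of replicates 1 to 6 held 32.5 CPM. FL81_04806 was lowest in the same library, at 322 CPM, with the next at 415 CPM. In ancestor replicate 8, the deepest ancestor library, FL81_21707 stood at 72.3 CPM against 33.1 CPM in the next and FL81_17394 at 118.7 CPM against 66.2 CPM. FL81_21707 reached 1360 CPM in heat replicate 3, with 301 CPM in the next heat library. Both genes flagged in control replicate 1 kept their call and direction without that library.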

How the results depend on the processing

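The count of 2067 genes (1027 higher, 1040 lower) stayed within 1.5 times in 25 of 28 alternatives, among them all 12 that left out 1 library (1626 to 2403 genes). It was 4301 (1946 and 2355) against control replicates 7 and 8 alone, 1329 (488 higher) with unaligned reads as a covariate, and 3907 (1885 and 2022) with the leading axis as a covariate, the last chosen after seeing the data, as were control replicates 1 to 3 alone (1974), 4 to 6 alone (2550) and thinned counts (1526). The limit of 1.5 times compares the number of genes and not which genes they are. Of the 2067, 1253 were also called with control replicates 1 to 3 alone and 1352 with all 28 libraries in 1 fit. The number was 1603 with control replicates 7 and 8 added, and 2049 with RLE normalization. It ran from 1577 to 1903 with 1 library left out. Genes changed at least 2-fold numbered 172 higher and 268 lower, against 835 and 1086 with control replicates 7 and 8 alone and 80 and 97 under the stricter filter, which tests fewer genes (6421). FL81_04806 reversed to 1.46 against control replicates 7 and 8 alone; the cause was not tested. The other 3 named genes kept direction and call in all 28.

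Same-numbered libraries did not deviate together (correlations over genes from -0.38 to 0.18, best with the own number in 1 of 6), so the main fit did not pair them. Whether they were handled together is not stated in the labels, and these correlations cannot show that they were not. With a replicate block 1455 genes differed, 1435 of them among the 2067. The paired exact sign-flip test, whose smallest unadjusted p with 6 pairs is 0.03125, gave an adjusted p above 0.05 for unaligned (difference 10.8 percentage points, adjusted p = 0.0781), ambiguous (-0.627, adjusted p = 0.0781) and not uniquely aligned reads (-0.348, adjusted p = 0.104), all 3 under 0.05 without pairing. The last ranged from -0.428 to -0.269 with 1 library left out, its call lost in 6 of 12. Depth limits genes near 1 CPM, which rest on a few reads.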

Other observations

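Called genes were also looked at by identifier number. Genes that rose had 1219 tested neighbours with the next lower or higher number, a gene being counted once for each gene it neighboured. Of these, 184 had also risen (15.1%, against 9.39% of all tested genes), and 85 had fallen (6.97%). At a distance of 2 the share that rose was 13.01%, and at distances of 3, 5, 10, 20, 50, 100 and 1000 it lay between 9.85% and 11.6%, above 9.39% at each. For genes that fell, 120 of 1092 neighbours had also fallen (10.99%, against 9.51%), and at the larger distances the share lay between 7.91% and 11.3%, the highest at a distance of 3, with no steady decline. Runs of 3 or more consecutive identifiers that all rose numbered 6 and held 20 genes, the longest being 4 long, and 1 run of 3 identifiers fell. The files give no positions, so that consecutive identifiers are not shown to be neighbouring genes, and genes that share reads where they overlap could not be told apart. These shares are a description with no test.

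Of 25337 identifiers, 4123 had no read in any of the 12 libraries. A further 1 had no read in control libraries 1 to 6 and at least 1 in every oxidative library, with 11 reads in all over the 6 oxidative libraries. It also had reads in control libraries 7 and 8, in ancestor and in heat libraries. None had reads in every control library and 0 in all oxidative libraries, over 22148447 and 26993867 gene reads in the 2 groups.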
